A study of Schizosaccharomyces pombe with 6 samples.

Results

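Fission yeast makes fatty acids in the cytosol and stores what it does not need as triacylglycerol in lipid droplets, and 7 genes of this route were followed here in RNAseq libraries of nitrogen-starved cells. They are *cut6*, *fas1*, *fas2* and *ole1* for synthesis, *plh1* and *dga1* for storage, and *sre1* for control. The genes were chosen by name and identifier, with earlier results of these data known but by no threshold on their values, and all 7 were among the 7001 genes measured. Their identifiers are SPAC56E4.04c (*cut6*), SPAC926.09c (*fas1*), SPAC4A8.11c (*fas2*), SPCC1281.06c (*ole1*), SPBC776.14 (*plh1*), SPCC1235.15 (*dga1*) and SPBC19C2.09 (*sre1*). *dga1* was sought as SPCC548.01c, and the reference lists that number as the older identifier of SPCC1235.15. All 7 passed the filter of a mean of at least 10 reads, with up to 102517 reads in a library.

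The study asked how the Greatwall-Endosulfine-PP2A/B55 pathway acts when cells enter quiescence. All cultures were h- *Schizosaccharomyces pombe*, starved at 25 °C for 4 hours in minimal medium without a nitrogen source, and 2 libraries labelled as biological replicates were made of each of 3 groups. WT carried no deletion. The *igo1*Δ group was *igo1::kanMX6*, a replacement of the Endosulfine gene. The third group was *nmt41-GST-pab1-KanMx6 igo1::natMx6*, which combines a replacement of *igo1* with GST-tagged *pab1*, which encodes the B55 subunit of the phosphatase PP2A, under the thiamine-repressible *nmt41* promoter. It is called *pab1*-repressed, and both this name and *igo1*Δ stand below for what the libraries are labelled. The labels describe growth and washing with thiamine for every strain, and they do not say whether the replicates were separate cultures of 1 clone.

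The targeted genes and the spread between replicates bear on every result. The *igo1*Δ-labelled libraries still held 1693 and 1478 reads of *igo1*, beside 1876 and 2098 for WT. The *pab1*-repressed libraries held 2307 and 5035 *igo1* reads, so the counts of this gene do not show the loss that the label names. Whether flanking sequence, antisense reads or a label problem lies behind this was not tested. Every direction below is drawn between libraries as labelled. Reads of *pab1* numbered 2853 and 3027 for WT, then 2182 and 1819 under the *igo1*Δ label and 2296 and 1078 under the *pab1*-repressed label. In *igo1*Δ against WT edgeR called both *igo1* (log2 fold change −0.23) and *pab1* (−0.46) lower. The edgeR fit of all 6 libraries called neither. In *pab1*-repressed against WT *pab1* was at −1.15, not called by limma. The log2 fold change of *pab1* of −0.73 in *pab1*-repressed against *igo1*Δ did not pass limma (SE 0.33, adjusted p = 0.199). It was −1.16 without *pab1*-repressed replicate 1, in a fit whose spread comes from the *igo1*Δ pair alone and which called 3866 of 6028 genes. *nmt1*, whose promoter thiamine represses, had between 146558 and 202812 reads in WT and *igo1*Δ but 66 and 49 where *pab1* was labelled as repressed. The high reads in WT and *igo1*Δ go against a label of thiamine for every strain, so in the comparisons with *pab1*-repressed a difference in thiamine and one in *pab1* cannot be told apart. Depth ran from 14791399 to 18809513 reads per library. The median gene differed between replicates 1.05-fold in WT, 1.10-fold in *igo1*Δ and 1.36-fold in *pab1*-repressed, so that the last pair stands apart from the others. Of 6 marker genes of the M mating type, that of h- cells, the summed share of reads was 0.232% and 0.217% in WT, 0.0250% and 0.0219% in *igo1*Δ, and 0.152% and 0.183% in *pab1*-repressed. The summed share of 4 P cell markers lay between 0.00909% and 0.0180% in all libraries, and edgeR called 2 of these 4 lower in *igo1*Δ than in WT.

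Fatty acid synthesis starts with acetyl-CoA carboxylase, which turns acetyl-CoA into malonyl-CoA. The fatty acid synthase, a large complex of alpha and beta subunits, then extends the chain, and a desaturase puts in the double bond that keeps membranes fluid. Acyl chains that are not built into membranes are esterified to diacylglycerol and kept in lipid droplets, stores known to grow when yeast cells stop dividing. In fission yeast the CSL factor Cbf11 and the factor Mga2 are known regulators of lipid genes, while Sre1, the homologue of mammalian SREBP, is cleaved when sterols or oxygen run low.

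Short stretches of the promoters are shown because they hold the matches to known site patterns of lipid regulators found in 4 of the 7 genes. The window searched ran from 250 bases before to 50 bases after the annotated start of each of 5110 coding genes in the RefSeq assembly ASM294v3, on both strands. GTGGGAA, the CSL site of Cbf11 and Cbf12, was present in 91 of these promoters (1.78%) and in 3 of the 7 genes, all on chromosome I. ATCACNCCA, a pattern of the sterol regulatory element type, was present in 21 promoters (0.411%) and in 1 of the 7 genes, *sre1* on chromosome II. The stretches read 5′ to 3′ on the gene's strand, with the match in capitals.
fas1: accacttcgtGTGGGAAtagtttagaa
fas2: aacctgagtgTTCCCACgcgatagtaa
cut6: agttggatgcGTGGGAActcaaaaaca
sre1: actttaacgaATCACCCCAttccgtctat
The match began 38 bases before the start of *fas1*, 32 before *fas2* and 110 before *cut6*. It lay on the gene's own strand in *fas1* and *cut6* and on the opposite strand in *fas2*, where the capitals are the reverse complement. The *sre1* match began 96 bases before the start on the gene's strand. No match of either pattern lay in the windows of *ole1*, *plh1* or *dga1*. A match describes the letters and was not tested as a binding site.

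The 7 genes spanned a wide range of levels. Over the 6 libraries the mean level in reads scaled by TMM (a factor that sets the libraries on a common scale) per kb of exon was 32610 for *ole1*, rank 21 of 5111 coding genes. The subunits of the synthase and the carboxylase came next, with 9669 for *fas1*, 8207 for *fas2* and 7409 for *cut6*. The storage and control genes were lower, at 2366 for *dga1*, 1639 for *sre1* and 390 for *plh1*, which ranked 3481. Per kb of coding sequence *ole1* stood at 52832 and *plh1* at 702, with the same order of the 7 genes. Only *fas1*, *fas2* and *cut6* changed places between libraries: *cut6* lay above *fas2* in both WT libraries, below it in both *igo1*Δ libraries, and on either side of it in the *pab1*-repressed pair. The levels of *fas1* and *fas2* per kb overlapped in the *igo1*Δ-labelled libraries, at 9646 and 10944 against 9333 and 10935, so their order there was within the spread. The 7 genes together took 1.58% and 1.57% of reads in WT, 1.36% and 1.42% in *igo1*Δ, and 1.45% and 1.52% in *pab1*-repressed. In TMM-scaled reads their sums were 255053 and 252135 in WT, 261010 and 305194 in *igo1*Δ, and 218056 and 226487 in *pab1*-repressed. The order of the groups in this total thus depended on the scaling. In bulk RNA, fewer cells that express a gene and less RNA per cell cannot be told apart.

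**Figure D1:**
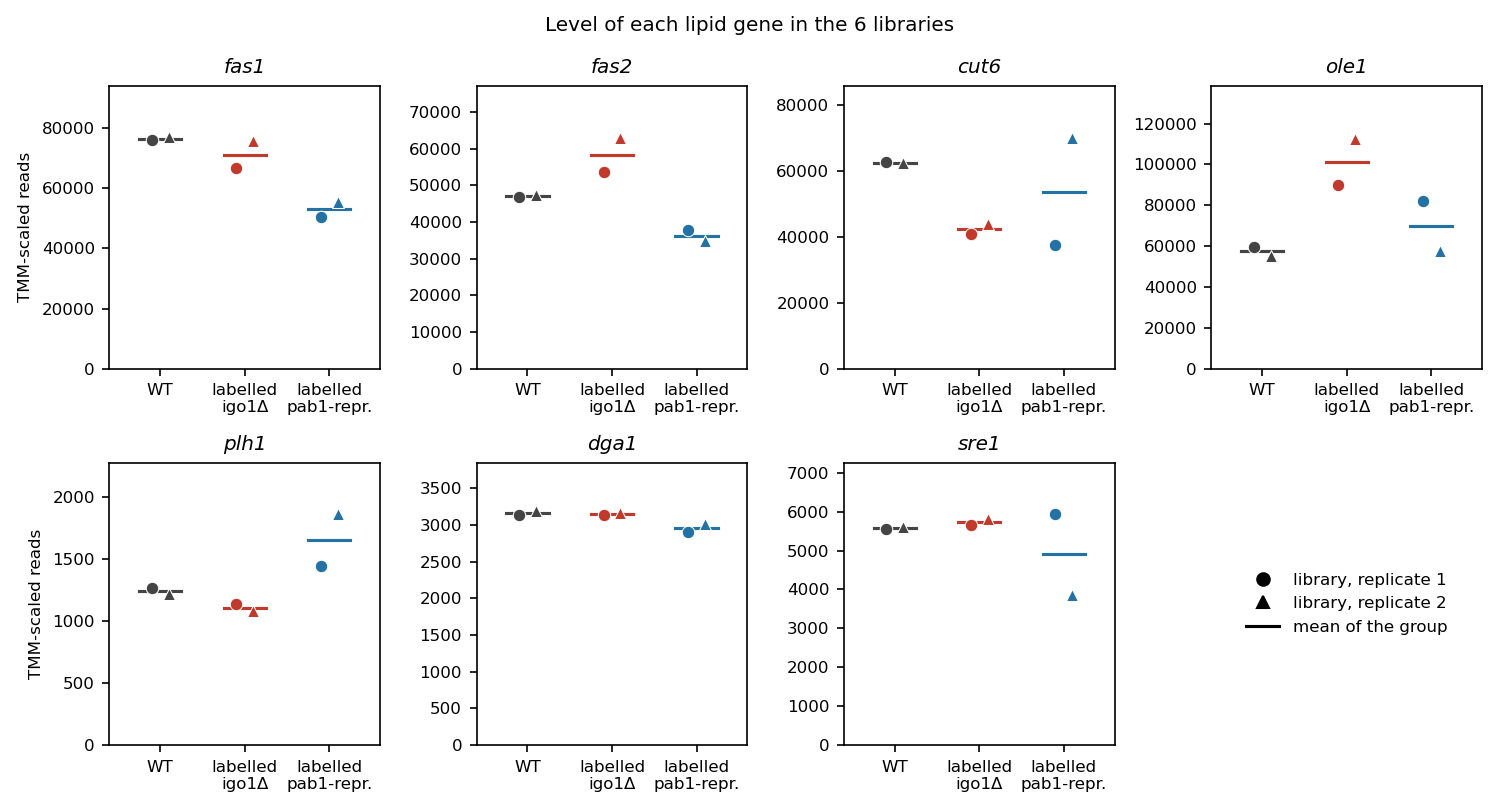
Level of each of the 7 genes (y axis, TMM-scaled reads, starting at 0) in the 3 groups (x axis). Circles are replicate 1, triangles replicate 2 and lines the group mean. *cut6* is lower and *ole1* higher in both libraries labelled *igo1*Δ than in both WT libraries, and the *pab1*-repressed pair is far apart in *cut6*, from 37568 to 69915.

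The first comparison, of the *igo1*Δ-labelled libraries with WT, asks what loss of Endosulfine does to these genes after nitrogen starvation. *ole1* rose, *cut6* fell, and the other 5 genes did not pass edgeR's quasi-likelihood test at an adjusted p under 0.05. That is 1 of 7 higher, where 29.6% of the 5931 genes tested were called higher, and 1 of 7 lower, where 30.1% were called lower. With upper-quartile scaling *plh1* was called lower as well, beside 38.4% of all genes, and with DESeq2 *fas2* was called higher, beside 27.5%. Both libraries of one group lay beyond both of the other for 6 of the 7 genes, against 82.3% of all genes tested. M marker genes moved with the same groups, all 6 being called lower with a median log2 fold change of −5.63, and their part in the changes of the lipid genes was not tested.

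*cut6* encodes acetyl-CoA carboxylase, which makes the malonyl-CoA that the synthase consumes. It had 62673 and 62446 TMM-scaled reads in WT and 40818 and 44002 in the *igo1*Δ-labelled libraries. The groups did not overlap, and the *igo1*Δ mean was 1.48-fold lower. By edgeR the log2 fold change was −0.57 (SE 0.13, adjusted p = 0.0048).

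*fas1* encodes the beta subunit of the fatty acid synthase. Its TMM-scaled reads were 76025 and 77138 in WT and 66797 and 75787 in *igo1*Δ, so 1 of the *igo1*Δ libraries came close to WT. The log2 fold change of −0.12 did not pass edgeR (SE 0.14, adjusted p = 0.507), and it was −0.20 without *igo1*Δ replicate 2. A fit that leaves out 1 *igo1*Δ library takes its spread from the closely matched WT pair alone. A call in such a fit says little of any 1 gene.

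*fas2* encodes the alpha subunit. It had 46737 and 47381 TMM-scaled reads in WT and 53694 and 62910 in *igo1*Δ, with no overlap. The log2 fold change of 0.30 did not pass edgeR (SE 0.14, adjusted p = 0.0902). DESeq2 called it at 0.33 (adjusted p = 0.0082). The edgeR log2 fold change was 0.42 without *igo1*Δ replicate 1 and 0.19 without replicate 2, in fits with the same limit.

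*ole1* encodes the acyl-CoA delta-9 desaturase, which makes monounsaturated from saturated acyl chains. It had 59646 and 55145 TMM-scaled reads in WT and 89770 and 112444 in *igo1*Δ, a 1.76-fold higher mean with no overlap. By edgeR the log2 fold change was 0.80 (SE 0.16, adjusted p = 0.0029).

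The calls of *cut6* and *ole1* were lost when either WT library was left out. Without WT replicate 1 the edgeR adjusted p was 0.142 for *cut6* and 0.0965 for *ole1*, and without WT replicate 2 it was 0.128 and 0.143. In these fits the lone WT library is assumed to vary like the *igo1*Δ pair. In 1 edgeR fit of all 6 libraries, which shares the wider spread of the *pab1*-repressed pair, the adjusted p was 0.292 for *cut6* and 0.0965 for *ole1*. The direction was the same in all of these fits.

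The genes of storage showed smaller differences. *plh1* encodes the acyltransferase that moves an acyl chain from a phospholipid to diacylglycerol, and it had 1267 and 1218 TMM-scaled reads in WT and 1141 and 1077 in *igo1*Δ. Its log2 fold change of −0.17 did not pass edgeR (SE 0.07, adjusted p = 0.0725), and it was −0.20 without *igo1*Δ replicate 1. *dga1* encodes the acyltransferase that uses acyl-CoA instead. With 3140 and 3197 TMM-scaled reads in WT and 3132 and 3165 in *igo1*Δ its groups overlapped, and its log2 fold change was −0.02 (SE 0.07, edgeR adjusted p = 0.80).

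*sre1* had 5564 and 5610 TMM-scaled reads in WT and 5658 and 5808 in *igo1*Δ. Its libraries lay apart, yet by little, and the log2 fold change of 0.03 did not pass edgeR (SE 0.07, adjusted p = 0.77).

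Ratios between genes of the same or neighbouring steps put these differences on 1 scale within each library. *fas2* over *fas1*, in reads per kb of exon, was 0.740 and 0.739 in WT, 0.968 and 0.999 in *igo1*Δ, and 0.896 and 0.758 in *pab1*-repressed. Both *igo1*Δ-labelled libraries lay above the other 4, closest to equal levels of the subunits. Per kb of coding sequence the ratio was 0.692 and 0.691 in WT and 0.905 and 0.934 in *igo1*Δ. *cut6* over *fas1* was 0.800 and 0.785 in WT and 0.593 and 0.563 in *igo1*Δ, and it was 0.719 and 1.23 in *pab1*-repressed. *plh1* over *dga1* was 0.154 and 0.145 in WT, 0.139 and 0.130 in *igo1*Δ, and 0.189 and 0.236 in *pab1*-repressed, where both libraries lay above all others. These ratios were not tested.

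**Figure D2:**
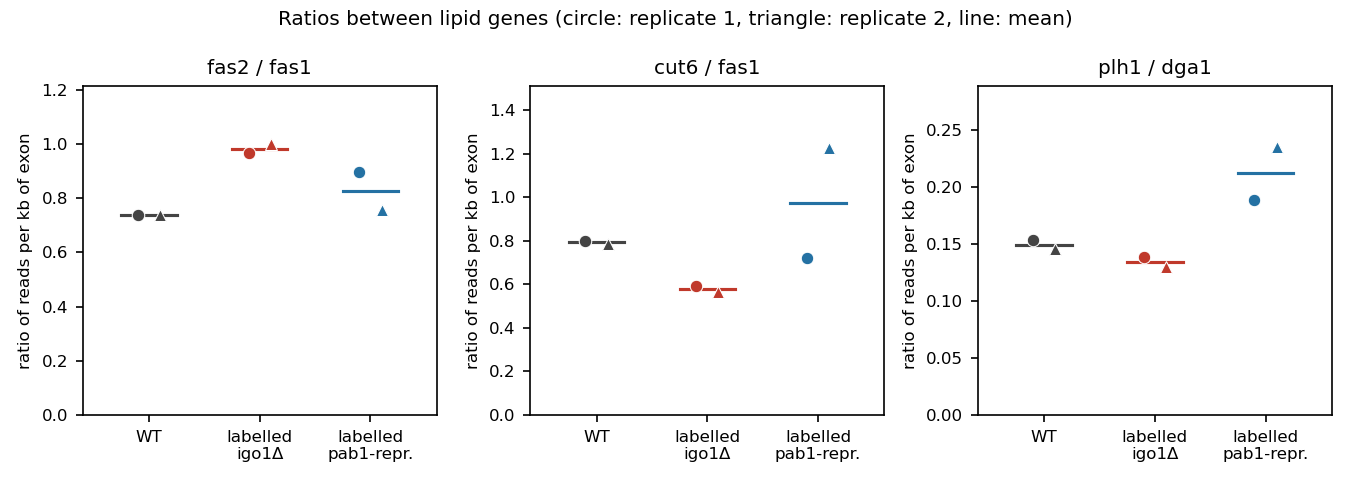
Ratios between pairs of genes (y axis, ratio of reads per kb of exon, starting at 0) in the 3 groups. Circles are replicate 1, triangles replicate 2 and lines the group mean. *fas2* over *fas1* is near 0.740 in WT and near 1 in the *igo1*Δ-labelled libraries, and *cut6* over *fas1* runs from 0.719 to 1.23 within the *pab1*-repressed pair.

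The second comparison, of *pab1*-repressed with *igo1*Δ, asks whether less B55 alters what is seen without Endosulfine. It used the deposited normalized values of the table that holds both groups. No gene of the 7 was called by limma at an adjusted p under 0.05, where 9.03% of the 6046 genes tested were called, and none by edgeR or DESeq2 on recovered reads, which called 8.15% and 21.3%. At an unadjusted p under 0.05 limma gave 1929 genes. Fits that leave out 1 *pab1*-repressed library take their spread from the *igo1*Δ pair alone and assume that the lone library varies like it. They called 3866 of 6028 genes without replicate 1 and 3335 of 5982 without replicate 2, so a call in them says little of any 1 gene. Both libraries of one group lay beyond both of the other for 5 of the 7 genes, against 67.2% of all genes tested.

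*fas2* had the largest log2 fold change in size of the 7 genes in this comparison, and that of *fas1* was smaller in size than those of *ole1* and *plh1*. Deposited values of *fas2* were 54375 and 64331 in *igo1*Δ and 38041 and 34474 in *pab1*-repressed, a log2 fold change of −0.71 (SE 0.29, limma adjusted p = 0.175). *fas1* went from 67644 and 77498 to 51080 and 54743, a log2 fold change of −0.45 (SE 0.31, limma adjusted p = 0.356). Neither passed the test although the groups lay apart in both, and *fas2* was called lower only in the edgeR fit of all 6 libraries (−0.68, adjusted p = 0.0480).

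For *ole1* the deposited values were 90907 and 114983 in *igo1*Δ and 82492 and 57039 in *pab1*-repressed, with a log2 fold change of −0.58 (SE 0.39, limma adjusted p = 0.351). *plh1* had the reverse order, with 1155 and 1102 in *igo1*Δ and 1453 and 1840 in *pab1*-repressed, and its log2 fold change was 0.54 (SE 0.20, limma adjusted p = 0.156). In the single-library fits *plh1* was at 0.71 without *pab1*-repressed replicate 1 and 0.37 without replicate 2, past the limma threshold in both. *dga1* differed little, at −0.12 (SE 0.17, limma adjusted p = 0.66).

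*cut6* and *sre1* were decided by which *pab1*-repressed library was read. *cut6* had deposited values of 41335 and 44996 in *igo1*Δ and 37882 and 69163 in *pab1*-repressed, so the 2 libraries of the pair lay on either side of *igo1*Δ. Its log2 fold change of 0.25 (SE 0.40, limma adjusted p = 0.686) became −0.19 without *pab1*-repressed replicate 2 and 0.68 without replicate 1. *sre1* had 5730 and 5939 in *igo1*Δ and 6000 and 3809 in *pab1*-repressed. Its log2 fold change of −0.29 (SE 0.28, limma adjusted p = 0.497) became 0.04 without replicate 2 and −0.61 without replicate 1, where limma called it (adjusted p = 0.0020).

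**Figure D3:**
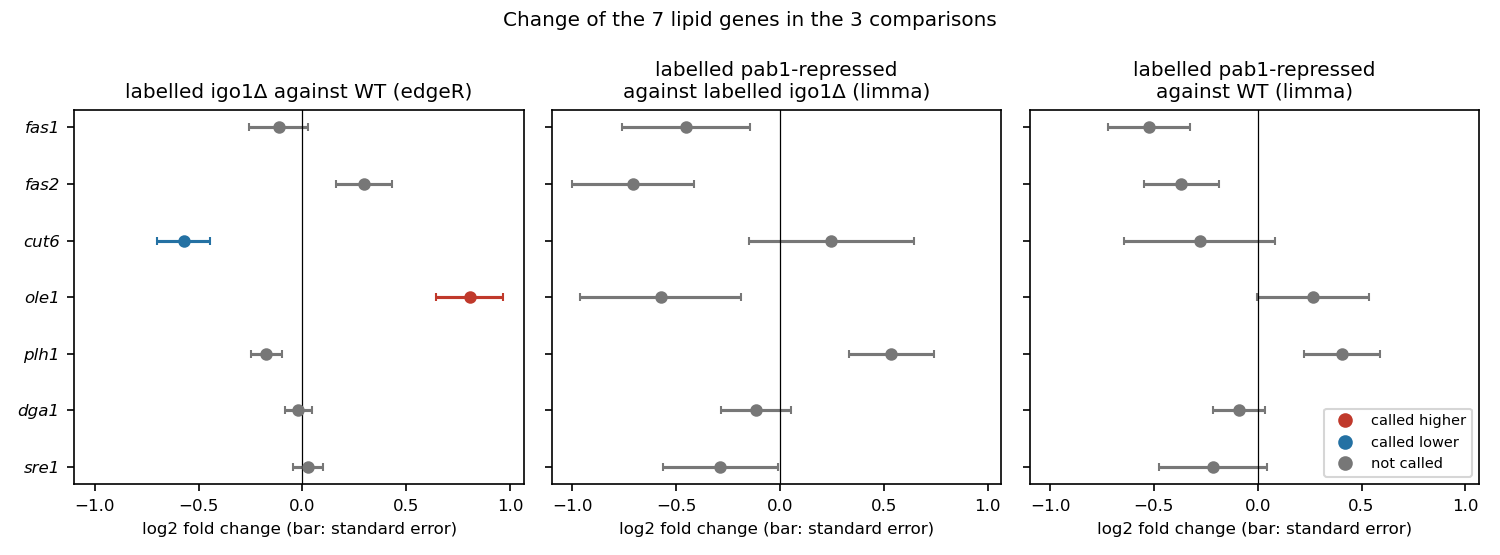
Log2 fold change (x axis) of the 7 genes (y axis) in the 3 comparisons. Points are estimates and bars their standard errors, which for edgeR were derived from the F statistic of the test. In the first comparison *cut6* (−0.57) is called lower and *ole1* (0.80) higher, and no gene is called in the other comparisons, whose bars are mostly wider.

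The third comparison, of *pab1*-repressed with WT, asks how far the combined strain lies from WT. None of the 7 genes was called by limma, edgeR or DESeq2. Only 2 of the 6035 genes tested were called by limma (0.0331%), 1108 had an unadjusted p under 0.05, and DESeq2 called 347 on recovered reads (5.73%), while edgeR called 0.0331%. Without *pab1*-repressed replicate 1 or 2 the spread comes from the closely matched WT pair alone, and 4210 of 6016 and 3639 of 5988 genes were called, so calls in these fits again say little of any 1 gene. Both libraries of one group lay beyond both of the other for 4 of the 7 genes, against 55.9% of all genes tested.

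Deposited values of *fas1* were 79354 and 80224 in WT and 53337 and 57647 in *pab1*-repressed, with no overlap. The log2 fold change was −0.52 (SE 0.20, limma adjusted p = 0.278). *fas2* likewise had 48783 and 49277 in WT and 39721 and 36303 in *pab1*-repressed, with a log2 fold change of −0.37 (SE 0.18, limma adjusted p = 0.351). Both genes passed the limma threshold in those single-library fits, *fas1* at −0.47 and −0.58 and *fas2* at −0.43 and −0.30, without replicates 1 and 2 in turn.

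*plh1* had 1322 and 1267 in WT and 1517 and 1938 in *pab1*-repressed, a log2 fold change of 0.41 (SE 0.18, limma adjusted p = 0.326). It passed the threshold in both single-library fits, at 0.58 without replicate 1 and 0.23 without replicate 2. *dga1* had 3278 and 3325 in WT and 3061 and 3140 in *pab1*-repressed, a small gap with no overlap at a log2 fold change of −0.09 (SE 0.13, limma adjusted p = 0.72).

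*ole1*, *cut6* and *sre1* each overlapped between the groups. *ole1* had 62258 and 57351 in WT and 86137 and 60065 in *pab1*-repressed, a log2 fold change of 0.27 (SE 0.27, limma adjusted p = 0.62), and was called higher without replicate 2 (0.53). *cut6* had 65418 and 64944 in WT and 39556 and 72831 in *pab1*-repressed, and its log2 fold change of −0.28 (SE 0.36, limma adjusted p = 0.70) became 0.16 without replicate 1 and −0.72, called lower, without replicate 2. *sre1* had 5808 and 5835 in WT and 6265 and 4011 in *pab1*-repressed. Its log2 fold change of −0.22 (SE 0.26, limma adjusted p = 0.68) became −0.54, called lower, without replicate 1 and 0.11 without replicate 2.

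The gap within the *pab1*-repressed pair differed from gene to gene. In TMM-scaled reads *cut6* was 1.86-fold higher in replicate 2, a gap larger than that of 78.7% of 5435 genes. *sre1* and *ole1* were 1.55-fold and 1.42-fold higher in replicate 1. *plh1* was 1.29-fold higher in replicate 2, and *fas1*, *fas2* and *dga1* differed 1.09-fold, 1.08-fold and 1.04-fold. In this pair the desaturase and the carboxylase thus leaned to different libraries, while the synthase and *dga1* were close.

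The other genes of the route place the 7 in context, counted from lists chosen with earlier results of these data known. Of 10 further genes of fatty acid synthesis edgeR called 7 lower and none higher for *igo1*Δ against WT, beside 30.1% of all genes lower and 29.6% higher, with a median log2 fold change of −0.34 against −0.03 for all genes. *bpl1*, the biotin ligase that attaches the cofactor of acetyl-CoA carboxylase, fell by 0.87 on the log2 scale, from 626 and 638 reads in WT to 340 and 307. *lcf1*, an acyl-CoA synthetase that activates long-chain fatty acids, fell by 0.54. *ole1* was the 1 gene of the 14 on this list that was called higher. None of the 10 was called in the edgeR fit of all 6 libraries, where the median was −0.32 and 374 of 5931 genes were called lower. Without WT replicate 1 or 2 fewer of the 10 were called lower, at medians of −0.36 and −0.31 in turn.

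Among 10 further genes of storage the same comparison gave 2 called higher and 3 lower, with a median of 0.11. These counts lie near the shares of all genes, 29.6% and 30.1%. The triacylglycerol lipases, which draw on the stores, did not move together. *ptl3* rose by 0.61 on the log2 scale, from 607 and 629 reads to 925 and 843, while *ptl2* fell by 0.61, from 3498 and 3747 to 2084 and 2343, and *ptl1* fell by 0.31. *ned1*, the lipin that makes diacylglycerol from phosphatidic acid, fell by 0.30. Without WT replicate 2 *ptl1* and *ned1* were no longer called (edgeR adjusted p = 0.0741 and 0.0877), nor was *ptl1* without *igo1*Δ replicate 1 (edgeR adjusted p = 0.0501).

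Of 14 further genes of the Sre1 pathway and lipid regulation, it gave 5 called higher and 5 lower, again close to the 29.6% and 30.1% of all genes. *rbd2*, a rhomboid protease of Sre1 cleavage, rose by 0.61 on the log2 scale and *sre2*, a second SREBP homologue, by 0.34. *dsc1* and *dsc4*, subunits of the Golgi ligase complex that Sre1 cleavage needs, fell by 0.55 and 0.40. The call of *sre2* was lost without either WT library (edgeR adjusted p = 0.0631 and 0.108). *cbf11* and *cbf12*, named after their values were seen because their site was searched above, had log2 fold changes of −0.11 and 0.16 and were not called by edgeR (adjusted p = 0.244 and 0.136).

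Besides *fas1*, *fas2* and *cut6*, of which *cut6* fell and the others were not called, the listed genes holding GTGGGAA, the site of these factors, were *lcf2*, *ptl1* and *nem1*. These 3 are named for the motif. In *igo1*Δ against WT *lcf2*, a second acyl-CoA synthetase, fell by 0.38, *ptl1* by 0.31, and *nem1*, the catalytic subunit of the lipin phosphatase, was called higher at 0.20. The call of *nem1* was lost in 8 of 11 alternatives.

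Single genes of the sterol and phospholipid lists showed the largest log2 fold changes of the lipid lists. For *igo1*Δ against WT, 12 of 24 ergosterol genes were called higher and 6 lower, with a median of 0.19, where 29.6% of all genes were called higher and 30.1% lower. *erg31*, a sterol desaturase, rose by 1.73 on the log2 scale, from 409 and 443 reads for WT to 1337 and 1302. *erg25*, a sterol methyl oxidase, rose by 1.28, from 15786 and 17877 to 33669 and 42423. *erg10*, which condenses acetyl-CoA for the mevalonate route, rose by 0.76, and *erg9*, squalene synthase, fell by 0.86. Of 16 phospholipid genes 4 were called higher and 5 lower, near those shares. *gpd1* and *gpd2*, the glycerol-3-phosphate dehydrogenases that supply the glycerol backbone and also make glycerol under osmotic stress, rose by 1.87 and 1.95. *psd3* and *cho1*, of phosphatidylethanolamine and phosphatidylcholine synthesis, fell by 0.74 and 0.69. The edgeR fit of all 6 libraries called 3 ergosterol genes higher, 2 phospholipid genes higher and 1 lower, 1 of the 14 Sre1 pathway genes lower and no storage gene. In that fit 513 of 5931 genes were called higher and 374 lower. Without WT replicate 1 or 2 fewer ergosterol genes were called in either direction, and the list median stayed at 0.19.

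In *pab1*-repressed against *igo1*Δ no gene of the fatty acid, storage or Sre1 lists was called by limma, 4 ergosterol genes were called lower, and 2 phospholipid genes were called lower. These are 4 of 24 and 2 of 16, where 370 of 6046 genes were called lower and 9.03% in either direction. The ergosterol genes were *erg10* at −2.07, *erg31* at −1.30, *erg27* at −1.14 and *mvd1* at −0.91, and the median of the list was −0.64 against 0.00 for all genes. The phospholipid genes were *gpd2* at −2.50 and *gpd1* at −2.25. Reads of *gpd1* numbered 105862 and 126751 under the *igo1*Δ label and 27932 and 36368 under the *pab1*-repressed label, beside 33458 and 34947 for WT. This comparison shares the *igo1*Δ libraries with the first, so values that move back in it are not independent of the first. Without either *igo1*Δ library none of the 4 ergosterol genes was called, and *gpd2* was the 1 phospholipid gene still called. Without a *pab1*-repressed library 12 (replicate 1) or 18 (replicate 2) ergosterol genes were called lower, in fits that called 2015 of 6028 and 1821 of 5982 genes lower. On recovered reads edgeR called 3 ergosterol genes lower, where 314 of 6064 genes were called lower. DESeq2 called 7 ergosterol genes and 1 fatty acid gene lower, where 729 of 6064 were. The edgeR fit of all 6 libraries called 9 ergosterol genes lower and 1 higher, and 2 fatty acid genes lower and 1 higher. It also called 3 phospholipid genes and 1 storage gene lower, where 878 of 6064 genes were called lower and 777 higher. All 5 listed thiamine-repressed genes were also lower in *pab1*-repressed, with a median of −4.61, and their part in the lipid genes' differences was not tested. In *pab1*-repressed against WT no gene of the 5 lipid lists was called by limma, or by edgeR fitted to these groups alone. The edgeR fit of all 6 libraries called 3 ergosterol genes, 1 fatty acid gene and 1 storage gene lower and none of the lists higher. In it 76 of 6051 genes were called lower and 47 higher. DESeq2 called 1 ergosterol gene higher and 4 lower, and 1 gene lower in each of the fatty acid and storage lists. Of all 6051 genes it called 194 higher and 153 lower.

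**Figure D4:**
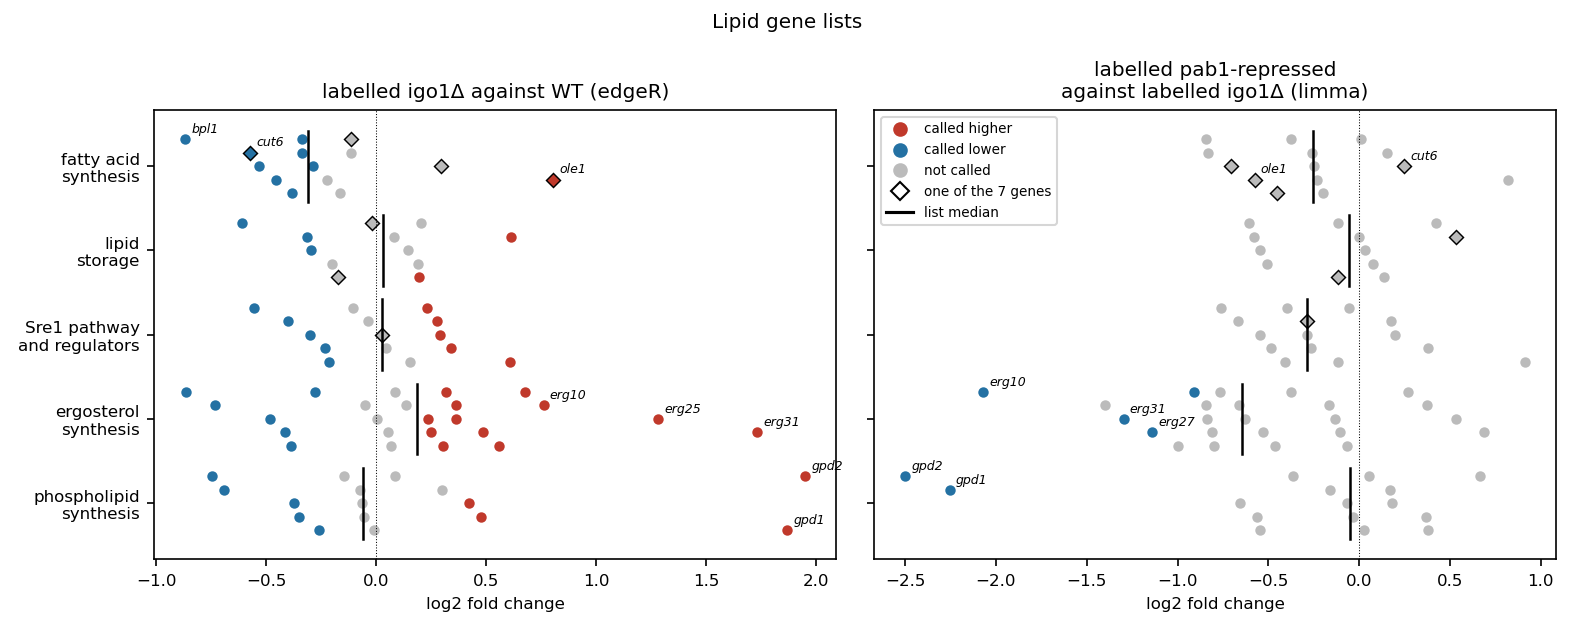
Log2 fold change (x axis) of each gene of the 5 lipid lists (y axis) in the first (left) and second (right) comparison. Diamonds are the 7 genes, circles the other list genes, colours the calls and black bars the list medians, with x axes of unequal range. On the left the fatty acid list lies mostly below 0 with *ole1* above it, and on the right *gpd1*, *gpd2*, *erg10*, *erg31* and *erg27* are among the genes called lower.

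The profile of each gene over the 6 libraries was compared with those of 5435 genes with a mean of at least 50 TMM-scaled reads, as the Euclidean distance between centred log2 values. The nearest genes to *fas1* were *cap1* (distance 0.126), *gst3* and *svf1*, against a median of 1.01 over all genes. For *fas2* they were *ent3* (0.0936), *nsp1* and *smi1*. The partner subunit was not the nearest gene to either, as *fas2* lay at 0.450 from *fas1*, rank 399. *cut6* was nearest to *urg3* (0.154), *lap2* and *pam1*, and *ole1* to the non-coding RNA gene SPNCRNA.1201 (0.166), *tcb2* and *nnk1*. The distance between *cut6* and *ole1* was 1.71, rank 4186 seen from *cut6*, the widest between any of the 7 genes. Each library counts separately, so gaps within a replicate pair enter these distances. In the *pab1*-repressed pair, replicate 1 minus replicate 2 was −0.90 for *cut6* and 0.50 for *ole1* in log2. *plh1* was nearest to *nop9* (0.0917), SPBC17A3.08 and *vms1*, *dga1* to *msm1* (0.0911), *nro1* and *ria1*, and *sre1* to SPCC777.03c (0.0772), *csi1* and *teb1*. *nro1*, whose product regulates the Sre1 inhibitor Ofd1, was the only gene of the lipid lists among these 21.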

How the data were processed

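RNA was from 6 libraries made with a stranded kit. The submitters' processing notes name FastQC 0.11.8, Trimmomatic 0.38, HISAT2 2.1.0, featureCounts of Subread 1.6.3 and DESeq2. Use of strand in counting is not given in the sources used here, so reads of antisense partners may be included. The deposited values are a normalized signal per gene, reads divided by a DESeq2 size factor over the 4 libraries of each of 2 tables that were scaled separately. Both tables include the *pab1*-repressed pair, and WT and *igo1*Δ lie in different ones. The labels name build ASM294v2 and the reference used for names, lengths and promoters is ASM294v3 (6852 of 7001 identifiers matched, 97.9%), so no coordinates are given.

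Each deposited column divided by its smallest positive value gave whole numbers for 100% of values (tolerance 1e-06 reads), taken as reads, and the pair present in both tables gave identical reads there. Replicates differed beyond sampling noise (chi-square per gene 9.26 in WT, 40.1 in *igo1*Δ, 418 in *pab1*-repressed), so each library counted separately. As nothing names separate cultures beyond the replicate label, p-values measure the spread between these samples, which may be technical.

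For *igo1*Δ against WT the recovered reads went into edgeR 4.0.16 (TMM, quasi-likelihood). The other comparisons used limma 3.58.1 with trend on log2(deposited value + 1), a scale that understates changes of low genes, within their table. Genes needed a mean of at least 10, p-values were Benjamini-Hochberg adjusted over all genes tested, and those under 0.05 were called. With 2 libraries a group no exact permutation test can reach 0.05. Folds are ratios of group means. The steps were also run on simulated data in which all libraries of a fit had the same spread, unlike these pairs. That run cannot show how reliable the calls are here. Alternatives were DESeq2 1.42.0 and edgeR or limma on the other scale, pseudocounts of 0.1 and 10, no filter or a mean of at least 50, upper-quartile scaling, 1 fit of all 6 libraries, coding length, a block for the replicate number, and leaving out single libraries. R 4.3.3, Python 3.11.15 and pandas 2.3.3 were used.

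The 7 genes and the lists were chosen with earlier results of these data known. Named besides are *igo1* and *pab1*, at most the 4 called genes of largest change per list and comparison, and the 3 genes nearest in profile to each of the 7. *nmt1* was named as the gene of the promoter used.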

Additional observations from a re-analysis of the deposited data

How the results depend on the processing

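Among the 7 genes direction and call were both the same in 62 of 77 gene and setting pairs for *igo1*Δ against WT. Both were the same in 84 of 91 pairs for *pab1*-repressed against *igo1*Δ and in 80 of 91 for *pab1*-repressed against WT. Beside the values given above, signs turned for *dga1* in *igo1*Δ against WT with DESeq2 (0.0079), for *sre1* there with upper-quartile scaling (−0.089), and for *dga1* in *pab1*-repressed against *igo1*Δ with upper-quartile scaling in edgeR (0.11, where edgeR with TMM gave −0.070). Within edgeR that scaling moved the median of all genes from −0.03 to −0.14 in *igo1*Δ against WT and from 0.09 to 0.28 in *pab1*-repressed against *igo1*Δ, and the share of calls that were higher from 49.6% to 39.2% and from 36.4% to 49.6%. The limma fit of the latter had a median of 0.00 and 32.2% higher. In *igo1*Δ against WT, 2 of the 7 genes were called higher with DESeq2 and 2 lower with upper-quartile scaling. The fit of all 6 libraries called 0 higher and 0 lower there, and 513 and 374 of all genes, against 1754 and 1785. In *pab1*-repressed against *igo1*Δ, where limma called 176 higher and 370 lower, DESeq2 called 563 and 729 and the fit of all 6 libraries 777 and 878, with 1 of the 7 lower. In *pab1*-repressed against WT, where limma called 0 and 2, DESeq2 called 194 and 153 and the fit of all 6 libraries 47 and 76.

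When single libraries were left out, the number of the 7 genes called ran from 0 to 2 higher and 0 to 2 lower in *igo1*Δ against WT, from 0 to 1 and 0 to 1 in *pab1*-repressed against *igo1*Δ, and from 0 to 2 and 0 to 3 in *pab1*-repressed against WT. Calls over all genes ran from 34 to 1851 higher and 89 to 2015 lower in *pab1*-repressed against *igo1*Δ, and from 0 to 2032 and 3 to 2178 against WT, the high counts coming without a *pab1*-repressed library. The log2 fold change ran from −0.035 to 0.0026 for *dga1* in *igo1*Δ against WT. In *pab1*-repressed against *igo1*Δ and against WT in turn it ran from −0.19 to 0.68 and −0.72 to 0.16 for *cut6*, and from −0.61 to 0.040 and −0.54 to 0.11 for *sre1*. For *igo1* in the last comparison it ran from −0.15 to 1.22. The causes were not tested.

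The replicate numbers were not shown to pair the libraries: deviations of same-numbered libraries correlated across 6031 genes at 0.02, 0.13 and 0.12. With the number as a replicate block, 170 genes were called higher and 374 lower in *pab1*-repressed against *igo1*Δ, and 6 and 15 in *pab1*-repressed against WT, where no block gave 0 and 2. No call among the 7 genes changed under it.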
